A study of Mus musculus with 23 samples.

Results

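The genes described here were the 10 genes of MHC class I antigen presentation H2-K1, H2-D1, B2m, Tap1, Tap2, Tapbp, Psmb8, Psmb9, Erap1 and Nlrc5, chosen by gene symbol from a table of read counts for 56748 mouse genes. The counts came from 23 tumors of B16-F1, a melanoma line derived from C57BL/6 mice, grown under the skin of the flank of inbred DBA/2J mice that were 6 to 8 weeks old when 700000 cells were implanted. The drugs were pentoxifylline (PTX), a methylxanthine given at 60 mg/kg, and norcantharidin (NCTD), a demethylated analog of cantharidin given at 3 mg/kg, and both were injected either intraperitoneally (IP) or into the tumor (IT). The IP arm held CONTROL_IP (saline), PTX_IP, NCTD_IP and MIX_IP (both drugs), with 2 tumors each. The IT arm held CONTROL_IT (DMSO), PTX_IT, NCTD_IT and MIX_IT, with 4, 3, 4 and 4 tumors. Control vehicle, injection route and the batch label changed together, so IP and IT tumors cannot be told apart by route alone. Tumor, host and infiltrating cells were sequenced together, and in such bulk tissue fewer cells of a type and less RNA per cell cannot be told apart.

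Class I molecules carry peptides from the inside of a cell to its surface, where CD8 T cells read them. The immunoproteasome cuts the peptides, the TAP transporter moves them into the endoplasmic reticulum, aminopeptidases trim them, and tapasin helps to load them onto a heavy chain paired with beta-2-microglobulin. Interferon-gamma induces most genes of this pathway, in part through the transactivator NLRC5, and B16 melanoma is known for low class I expression that interferon-gamma raises.

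All 10 genes were found in the table and all 10 passed the filter on low counts in each arm and in the full set. Of the 10, 7 lie on chromosome 17 in or near the MHC (GRCm39). H2-K1 (ENSMUSG00000061232, chromosome 17, 34214991 to 34219321, minus strand) and H2-D1 (ENSMUSG00000073411, chromosome 17, 35481706 to 35486475, plus strand) encode heavy chains. Psmb9, Tap1, Psmb8 and Tap2 sit side by side within 34.3 kb. The spans of Psmb9 and Tap1 overlap by 212 bases on opposite strands. A strand setting for the counting was not given in the sources used here, so reads from that overlap could have been assigned to either gene. The same limit holds for Erap1, which overlaps Cast on the opposite strand (8132 Cast counts over all tumors, 5228 of Erap1). It also holds for Nlrc5, which overlaps 9330175E14Rik (1376 counts against 6981 of Nlrc5). B2m lies on chromosome 2, Erap1 on chromosome 13 and Nlrc5 on chromosome 8.

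The promoter of H2-K1 is shown because it holds, close together, the kinds of motif through which inflammatory signals are known to act on class I heavy chain genes. It was taken from RefSeq (GRCm38.p6) as the 250 bases before the transcription start, and an exact match placed it in GRCm39 at chr17:34219322-34219571 on the minus strand. Capitals mark a kappaB-like match (GGGNNTTCC) followed by an IRF motif (GAANNGAAA, here on the opposite strand).
H2-K1: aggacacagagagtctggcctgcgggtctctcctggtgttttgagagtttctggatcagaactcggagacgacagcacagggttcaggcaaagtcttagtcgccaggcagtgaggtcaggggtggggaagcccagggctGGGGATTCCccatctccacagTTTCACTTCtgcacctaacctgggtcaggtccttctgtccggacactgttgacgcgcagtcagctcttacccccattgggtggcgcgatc
For H2-D1 the RefSeq start lay 364 bases inside the listed gene, so its window overlaps that gene's span. The same pair of motifs stood in this H2-D1 window, in a stretch of 30 bases at chr17:35481899-35481928 on the plus strand. It differed from the H2-K1 stretch at chr17:34219403-34219432 at 1 position.
H2-K1: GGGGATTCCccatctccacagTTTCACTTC
H2-D1: GGGGATTCCccatctcctcagTTTCACTTC
RefSeq held promoters for 8 of the 10 genes, without Tap2 and Nlrc5. The windows of H2-D1, Tapbp, Psmb8, Psmb9 and Erap1 lay within the listed genes. Their RefSeq starts were 285 (Erap1) to 3579 (Tapbp) bases from the listed 5′ ends. With both strands searched, the kappaB-like motif was found in 2 of the 8 and in 4.88% of 27025 promoters of the same length, and the IRF motif in the same 2 and in 6.34% of all. A GAS motif (TTCNNNGAA) was found in Psmb8 alone among the 8 (TTCCCAGAA, at -97 to -89 from the start) and in 7.18% of all promoters. The Y box core (ATTGG) was found in 6 of 8, among them B2m and Tap1, and in 34.5% of all promoters. The windows of Tap1 (chr17:34406280-34406529) and Psmb9 (chr17:34406305-34406554) overlap on opposite strands. Their Y box matches are the same site, counted for both genes.

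Library totals ran from 2861578 to 6702374 counts (median 4013068), so 3 counts corresponded to 0.449 to 1.04 CPM (read counts per 1000000 counts of the TMM-scaled library). H2-K1, H2-D1 and B2m never had fewer than 1028 counts in a tumor, whereas Tap2 had 2 to 121. Libraries were made from the 3′ ends of mRNA, so a CPM did not scale with gene length and levels were compared between tumors, not between genes. The markers of melanocytic cells were high in every tumor (summed 14979 to 36699 CPM), and all 4 B cell markers together never exceeded 2.40 CPM. The female-expressed RNA Xist read 1.28 to 13.6 CPM and the Y-linked Ddx3y at most 0.294 CPM in all PTX_IT and NCTD_IT tumors, whereas Xist was at most 0.566 CPM and Ddx3y at least 1.03 CPM in all CONTROL_IT and MIX_IT tumors. Within the IT arm the single-drug effects therefore cannot be told apart from this split. In the IP arm only CONTROL_IP tumor 2 had Xist counts (8.26 CPM).

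The 10 genes varied mainly from tumor to tumor, and rose and fell together. In the heavy chain H2-K1, the 4 CONTROL_IT tumors read 265, 2244, 751 and 639 CPM and the 4 NCTD_IT tumors read 2164, 2011, 1276 and 2374 CPM. PTX_IT read 2139, 2998 and 451 CPM, and MIX_IT read 594, 2613, 305 and 1878 CPM. Each of these groups but NCTD_IT thus held tumors with high and tumors with low H2-K1, and CONTROL_IT tumor 10 was above 3 of the 4 NCTD_IT tumors. In the IP arm H2-K1 read 1439 and 1915 CPM in CONTROL_IP, 1913 and 729 in PTX_IP, 1360 and 1446 in NCTD_IP, and 1890 and 1137 in MIX_IP, and each treated group overlapped CONTROL_IP.

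H2-D1, the second heavy chain, had group means of 1696 ± 1193 (SD, n = 4) CPM in CONTROL_IT, 2993 ± 1731 (n = 3) in PTX_IT, 2759 ± 1441 (n = 4) in NCTD_IT and 2022 ± 1498 (n = 4) in MIX_IT, against 2885 to 2974 CPM in the 4 IP groups (n = 2 each). B2m, the light chain shared by all class I molecules, read 1484, 7936, 4508 and 3882 CPM in CONTROL_IT, 5278, 3409, 3113 and 8296 CPM in NCTD_IT, 6481, 6639 and 2486 CPM in PTX_IT, and 3037, 7273, 1009 and 5163 CPM in MIX_IT. All 3 treated IT groups overlapped CONTROL_IT in both genes. The IP tumors read 3726 CPM (PTX_IP tumor 4) to 7449 CPM (CONTROL_IP tumor 2) of B2m.

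Among the peptide loading genes, Tapbp (tapasin) read 82.1, 434, 212 and 210 CPM in CONTROL_IT and 501, 372, 373 and 830 CPM in NCTD_IT. In PTX_IT it read 517, 762 and 97.6 CPM, and in MIX_IT 195, 603, 185 and 401 CPM. In Tapbp too, CONTROL_IT tumor 10 reached into the NCTD_IT range, and the other 3 CONTROL_IT tumors lay below all 4 NCTD_IT tumors. The transporter subunit Tap1 averaged 203 ± 145 CPM in CONTROL_IT and 374 ± 58.8 CPM in NCTD_IT (SD, n = 4 each), and the 4 NCTD_IT values (314 to 439 CPM) lay closer together than the control values (47.9 to 398 CPM). Tap2, the other subunit, read 0.515, 15.8, 6.30 and 5.09 CPM in CONTROL_IT and 21.04, 15.9, 6.91 and 24.5 CPM in NCTD_IT, and its lowest value was 2 counts.

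The immunoproteasome subunits Psmb8 and Psmb9 replace constitutive subunits under interferon-gamma. Psmb8 read 59.5, 645, 296 and 263 CPM in CONTROL_IT, 460, 320, 494 and 694 CPM in NCTD_IT, 555, 692 and 147 CPM in PTX_IT, and 193, 583, 90.3 and 625 CPM in MIX_IT. Psmb9 spanned 61.8 CPM (CONTROL_IT tumor 9) to 630 CPM (NCTD_IT tumor 20). The ratio of Psmb8 to Psmb5 counts, the subunit that Psmb8 replaces, went from 0.317 in CONTROL_IT tumor 9 to 4.70 in CONTROL_IT tumor 10, so CONTROL_IT alone spanned most of the range of the 23 tumors, whose highest value was 7.20 in PTX_IT tumor 15. In the NCTD_IT tumors the ratio was 3.03 to 5.76.

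Erap1, the aminopeptidase that trims peptides in the endoplasmic reticulum, varied least over the tumors, by 4.89-fold. It read 15.96, 71.6, 30.7 and 32.5 CPM in CONTROL_IT and 78.1, 65.5, 43.6 and 72.5 CPM in NCTD_IT. Nlrc5, the transactivator, read 20.6, 84.8, 51.1 and 51.2 CPM in CONTROL_IT, 77.2, 60.8, 79.5 and 98.1 CPM in NCTD_IT, 78.04, 86.7 and 31.8 CPM in PTX_IT, and 43.2, 80.5, 13.6 and 82.3 CPM in MIX_IT. For both genes 3 of the 4 CONTROL_IT tumors lay below every NCTD_IT tumor and CONTROL_IT tumor 10 lay within the NCTD_IT range.

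**Figure D1:**
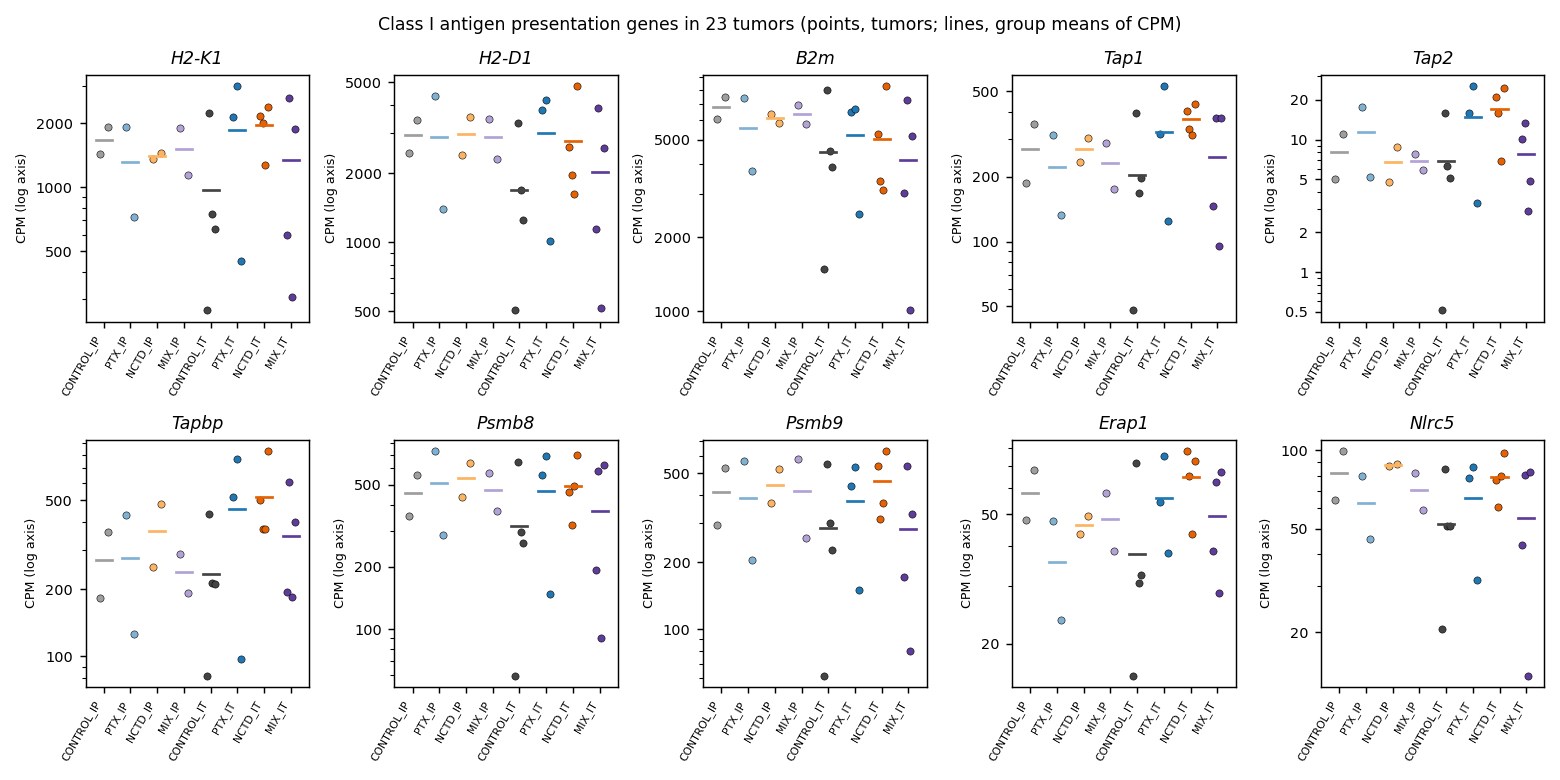
CPM of each of the 10 genes (log axis) in the 8 groups, 1 point per tumor, with lines at the group means. In every gene CONTROL_IT spreads widely, for H2-K1 from 265 to 2244 CPM, and overlaps each treated IT group. The lowest Tap2 point, CONTROL_IT tumor 9, stands for 2 counts.

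The same tumors were low or high in gene after gene. CONTROL_IT tumor 9 was lowest in 8 of the 10 genes and MIX_IT tumor 23 in the other 2, B2m and Nlrc5. Leaving out Tap2, the highest tumor exceeded the lowest by 4.89-fold in Erap1 to 12.3-fold in Psmb8. By the mean log2 CPM of the 10 genes, the highest tumors were NCTD_IT tumor 20 (9.11), PTX_IT tumor 15 (9.08), MIX_IT tumor 22 (8.83) and CONTROL_IT tumor 10 (8.82), and the lowest were CONTROL_IT tumor 9 (5.98), MIX_IT tumor 23 (6.46) and PTX_IT tumor 16 (7.03). All 4 IT groups are represented among the 4 highest tumors.

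Over the 23 tumors the 45 pairs of genes had a median Pearson correlation of 0.87 (lowest 0.67, highest 0.97) and a median Spearman correlation of 0.82, on log2 CPM. After the group means were subtracted the median Pearson correlation was 0.92, so the shared movement lay within groups. These values describe tumors that share library depth and normalization between genes. The within-group SD of the 10 genes had a median of 0.963 on the log2 scale, against 0.441 for all 13395 genes, and differences between the 8 groups held a median of 22.6% of their variance, against 34.5% for all genes.

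By group, the mean log2 CPM of the 10 genes was 8.58 ± 0.43 in NCTD_IT, 8.37 ± 0.28 in NCTD_IP, 8.35 ± 0.48 in CONTROL_IP, 8.27 ± 1.09 in PTX_IT, 8.23 ± 0.43 in MIX_IP, 8.10 ± 0.94 in PTX_IP, 7.80 ± 1.05 in MIX_IT and 7.53 ± 1.17 in CONTROL_IT (SD; n as given above). Neighbors in this order differed by less than the within-group SD of 0.886. The NCTD_IT tumors spread less than the other IT groups, between 8.16 and 9.11, and CONTROL_IT spread between 5.98 and 8.82.

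**Figure D2:**
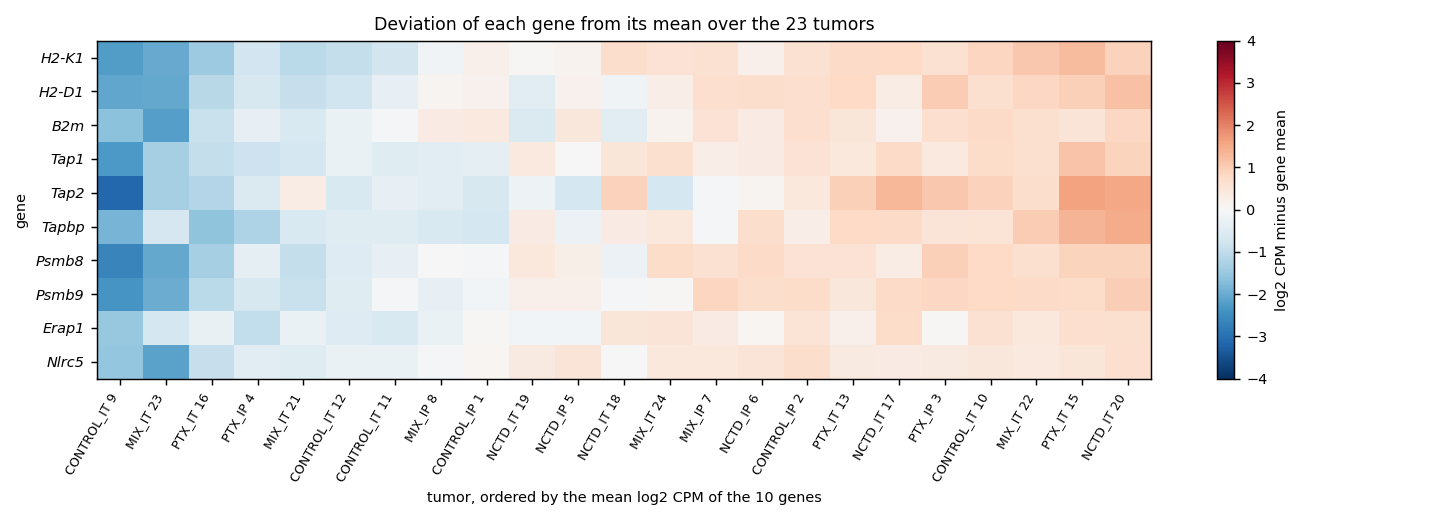
Deviation of log2 CPM from each gene's mean over the 23 tumors (color; red higher, blue lower), with tumors ordered by the mean of the 10 genes. CONTROL_IT tumor 9 (mean 5.98) and MIX_IT tumor 23 (6.46) stand at the low end, and NCTD_IT tumor 20 (9.11) at the high end.

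To ask whether local treatment changed class I genes, each IT drug group was compared with CONTROL_IT by edgeR's quasi-likelihood test over 12480 genes, with adjusted p below 0.05 as the call. After NCTD_IT no gene of the 10 was called, although all 10 had a positive log2 fold change, with a median of 0.74 against 0.03 for all genes tested. Estimates ran from 0.17 ± 0.53 (SE) in B2m to 1.29 ± 0.71 in Tap2. The smallest p-values belonged to Erap1 (0.78 ± 0.38, 95% interval -0.02 to 1.58, adjusted p = 0.244) and Tapbp (1.14 ± 0.55, 95% interval -0.04 to 2.31, adjusted p = 0.244). Among all genes 1.37% were called, 21.6% had an unadjusted p below 0.05 and DESeq2 called 10.6%. Of the 10 class I genes none had an unadjusted p below 0.05 by edgeR and DESeq2 called none. Unadjusted DESeq2 p-values were below 0.05 for Erap1 (0.0300), Tapbp (0.0330) and Tap2 (0.0331).

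With the filter on low counts removed, edgeR called 7 of the 10 in this comparison (Erap1, H2-D1, H2-K1, Psmb9, Tap1, Tap2 and Tapbp), where it called 4.43% of 26878 genes. Of the 1190 genes called, 1165 were among the 12480 that pass the filter, as all 10 class I genes do. The share among such genes was thus higher than 4.43%. With log2 CPM of Xist as a covariate the direction turned in all 10 genes, to a median log2 fold change of -1.75. Xist did not overlap between the groups (at most 0.566 CPM in CONTROL_IT, at least 5.19 CPM in NCTD_IT). The covariate thus nearly repeats the group, and this fit cannot decide the direction. The same limit holds below wherever NCTD_IT or PTX_IT is set against CONTROL_IT or MIX_IT with this covariate. Leaving out 1 tumor moved the median from 0.46 (without CONTROL_IT tumor 9) to 1.28 (without CONTROL_IT tumor 10).

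After PTX_IT all 10 estimates were again positive (median 0.61, from 0.21 ± 0.57 in B2m to 1.07 ± 0.76 in Tap2), and no gene was called or had an unadjusted p below 0.05 (smallest adjusted p = 0.811, edgeR). DESeq2 called none of the 10. The background was 0% of genes called by edgeR, 6.35% at the unadjusted threshold and 0.0969% by DESeq2. Without the filter edgeR called H2-K1 and Tapbp, 2 of the 10, beside 0.826% of all genes. Of the 222 genes called in that fit, 219 were among the 12480 that pass the filter. The Xist covariate turned the median to -1.60. Leaving out 1 tumor moved the median from 0.22 (without PTX_IT tumor 15) to 1.20 (without CONTROL_IT tumor 10). PTX_IT tumor 16, with 451 CPM of H2-K1, stood far below the other 2 PTX_IT tumors.

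After MIX_IT 8 estimates were positive and 2 negative (median 0.23), from -0.12 ± 0.53 in B2m to 0.55 ± 0.55 in Tapbp. None of the 10 was called (smallest adjusted p = 0.717, edgeR), none passed the unadjusted threshold and none was called by DESeq2, against 0%, 13% and 1.92% of all genes. The 95% interval of H2-K1 was -0.95 to 1.86. The direction in MIX_IT depended on single tumors: without CONTROL_IT tumor 10 B2m read 0.31, and without MIX_IT tumor 22 it read -0.54. The median over the 10 genes was 0.84 and -0.12 in the same fits, and -0.089 without CONTROL_IT tumor 9.

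**Figure D3:**
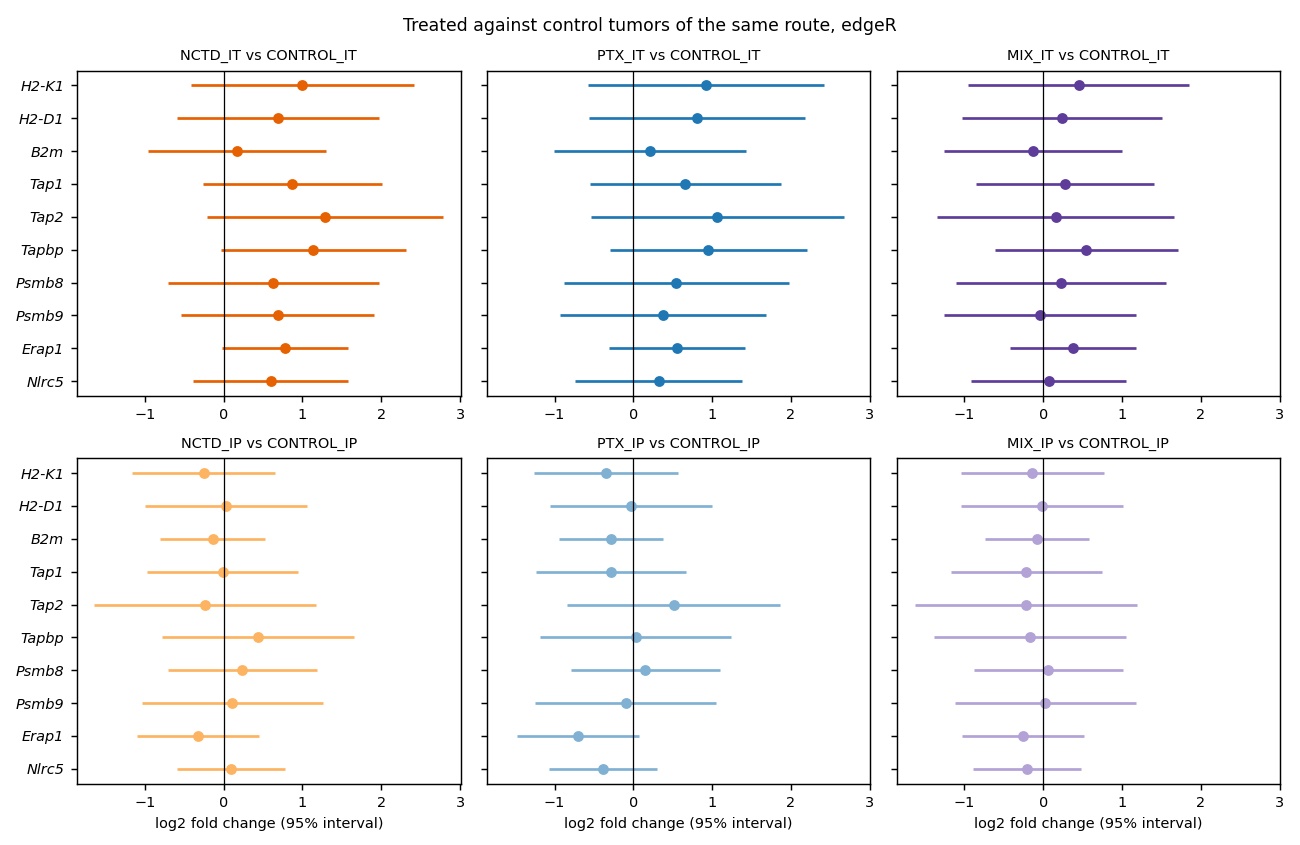
Log2 fold changes of the 10 genes in the treated against the control tumors of the same route, with points for edgeR estimates and lines for 95% intervals. Every interval includes 0; the NCTD_IT and PTX_IT points all lie above 0 (medians 0.74 and 0.61).

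The drug groups were also set against each other. NCTD_IT and PTX_IT differed by a median log2 fold change of 0.20 over the 10 genes, with none called by edgeR or DESeq2 and none at an unadjusted p below 0.05, beside backgrounds of 0%, 0.00851% and 3.87%. All 10 genes read lower in MIX_IT than in NCTD_IT (median -0.53, from -1.13 ± 0.70 in Tap2 to -0.29 ± 0.53 in B2m). None was called by either tool or passed the unadjusted threshold by edgeR (smallest adjusted p = 0.818, edgeR). By DESeq2 Tap2 had an unadjusted p of 0.0268. Among all genes 0.00801% were called by edgeR, 0.0663% by DESeq2 and 6.02% were under the unadjusted threshold by edgeR. All 10 also read lower in MIX_IT than in PTX_IT (median -0.39), again with none called by either tool or at the unadjusted threshold, beside 0%, 0.0431% and 3.75%. With the Xist covariate both medians turned, to 2.08 against NCTD_IT and 2.10 against PTX_IT, and without PTX_IT tumor 15 the median against PTX_IT was 0.02. These comparisons share their groups with the ones above. The 95% interval of H2-K1 in MIX_IT against NCTD_IT, -1.95 to 0.86, left room for a lower and a higher level.

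After intraperitoneal treatment, where 12424 genes were tested, no direction held over the 10 genes. The median log2 fold change was 0.01 in NCTD_IP (5 positive, 5 negative), -0.19 in PTX_IP (3 positive, 7 negative) and -0.15 in MIX_IP (2 positive, 8 negative). Single tumors turned the sign of each median: leaving out 1 tumor gave -0.27 (without CONTROL_IP tumor 1) to 0.44 (without CONTROL_IP tumor 2) in NCTD_IP, -1.02 (without PTX_IP tumor 3) to 0.33 (without PTX_IP tumor 4) in PTX_IP, and -0.47 (without MIX_IP tumor 7) to 0.28 (without CONTROL_IP tumor 2) in MIX_IP. With the Xist covariate the medians were 0.44, 0.24 and 0.28. Only CONTROL_IP tumor 2 had Xist counts in this arm, so that fit amounts to leaving this tumor out and is no separate check. Erap1 in PTX_IP had the largest estimate of the 3 comparisons, -0.70 ± 0.34 (95% interval -1.47 to 0.07, adjusted p = 0.906, edgeR). In all 3 comparisons edgeR called none of the 10, none had an unadjusted p below 0.05, and DESeq2 called none. The background was 0% by edgeR in all 3. It was 3.59% in NCTD_IP, 5.3% in PTX_IP and 2.94% in MIX_IP at the unadjusted threshold, and 0.0787%, 0.0186% and 0.138% by DESeq2.

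With 4 tumors given a drug set against 4 not given it, the median was -0.11 for PTX and 0.05 for NCTD. None of the 10 was called by either tool or passed the unadjusted threshold, beside 0%, 0.00846% and 3.28% for PTX and 0%, 0.00423% and 2.84% for NCTD. The B2m interval was the narrowest, -0.58 to 0.36 for PTX and -0.44 to 0.50 for NCTD on the log2 scale.

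Between the routes, with drug held equal over 23 tumors and 13395 genes, 5 of the 10 genes read higher and 5 lower in IT tumors (median -0.13). The estimates went from -0.40 ± 0.30 in B2m to 0.42 ± 0.42 in Tap2. None was called by edgeR or DESeq2 and none passed the unadjusted threshold, where 0.739%, 3.78% and 14.4% of all genes did. Without the filter B2m was called, 1 of the 10, beside 1.56% of all genes. Of the 453 genes called in that fit, 448 were among the 13395 that pass the filter. The drug effect itself was compared between routes by an interaction term. Its median over the 10 genes was 0.70 for NCTD, 0.78 for PTX and 0.35 for MIX. Leaving out 1 tumor gave medians of 0.24 to 1.19 for NCTD and 0.26 to 1.69 for PTX, so neither sign turned. For MIX the medians were -0.055 (without CONTROL_IP tumor 2) to 0.92 (without CONTROL_IT tumor 10). With the Xist covariate, limited as above, the medians for NCTD, PTX and MIX turned to -1.36, -1.18 and -0.19. No gene was called by either tool or at the unadjusted threshold, so a difference between routes was not detected. DESeq2 gave an adjusted p for only 9 of the 10 in MIX_IP and in the NCTD and MIX interactions. The background was 0%, 1.29% and 10.8% for NCTD, 0%, 0.00344% and 5.23% for PTX, and 0%, 0.0564% and 7.44% for MIX by edgeR, by DESeq2 and at the unadjusted threshold. Without the filter edgeR called H2-K1 alone of the 10 in the NCTD interaction, beside 0.974% of all genes. All 283 genes called in that fit were among the 13395 that pass the filter.

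Since the 10 genes moved together from tumor to tumor, counts were also expressed relative to B2m within the same tumor, a measure chosen after the values had been seen and given without a test. The ratio of Tapbp to B2m was 0.0553, 0.0547, 0.0471 and 0.0541 in CONTROL_IT and 0.0949, 0.109, 0.1199 and 0.1001 in NCTD_IT. The 2 groups did not overlap, and CONTROL_IT tumor 10, which matched the NCTD_IT tumors in level, lay with the other controls in this ratio. The ratio of H2-D1 to B2m was 0.340, 0.419, 0.377 and 0.323 in CONTROL_IT and 0.496, 0.577, 0.520 and 0.582 in NCTD_IT, and that of H2-K1 to B2m was 0.178, 0.283, 0.167 and 0.165 against 0.410, 0.590, 0.410 and 0.286. Neither ratio overlapped between the groups, though the H2-K1 ratios of CONTROL_IT tumor 10 and NCTD_IT tumor 20 all but touched.

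Of the 9 ratios to B2m, 7 were higher in NCTD_IT than in CONTROL_IT without overlap (H2-D1, H2-K1, Psmb8, Psmb9, Tap1, Tap2 and Tapbp), against 2.38% of the other 12479 genes tested in the IT arm. The 7 share 1 denominator and 1 set of tumors. With any other of the 10 genes as denominator at most 2 of 9 ratios were without overlap. Only with H2-D1 was a ratio higher in NCTD_IT (1 higher, 1 lower). With Tapbp 2 were lower, and with H2-K1, Tap1, Tap2, Psmb8 or Psmb9 only 1 was, also lower. No share over all genes was computed for these denominators. In PTX_IT none of the 9 ratios was above all controls (background 0.914%), but 5 were once PTX_IT tumor 16 was left out. In MIX_IT only Tapbp was (background 0.577%), and leaving out 1 tumor gave 1 to 4, the highest without MIX_IT tumor 21. Leaving out 1 tumor in NCTD_IT against CONTROL_IT gave 7 to 9 of 9. For the counts without 1 tumor no share over all genes was computed. Smaller groups separate more easily, so the backgrounds of the full groups do not apply to them. In the IP arm the ratio of Tapbp to B2m was 0.0301 and 0.0482 in CONTROL_IP and 0.0393 and 0.0819 in NCTD_IP, which overlapped. The ratio of H2-K1 to B2m was 0.196 to 0.273 over all 8 IP tumors, and each drug group reached into or across the CONTROL_IP range of 0.236 to 0.257.

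The H2-K1 and H2-D1 gene models are those of C57BL/6, the strain behind both the reference genome and B16-F1, while DBA/2J hosts carry other H-2 alleles. The counts do not separate tumor from host transcripts, and the part of this in the heavy chain ratios was not tested. NCTD_IT tumor 18, with the highest ratio of H2-K1 to B2m, also had 1089 CPM of neutrophil markers against 2.26 to 46.3 CPM in all other tumors. Leaving it out still gave 7 of 9 ratios without overlap, again with no share over all genes computed.

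**Figure D4:**
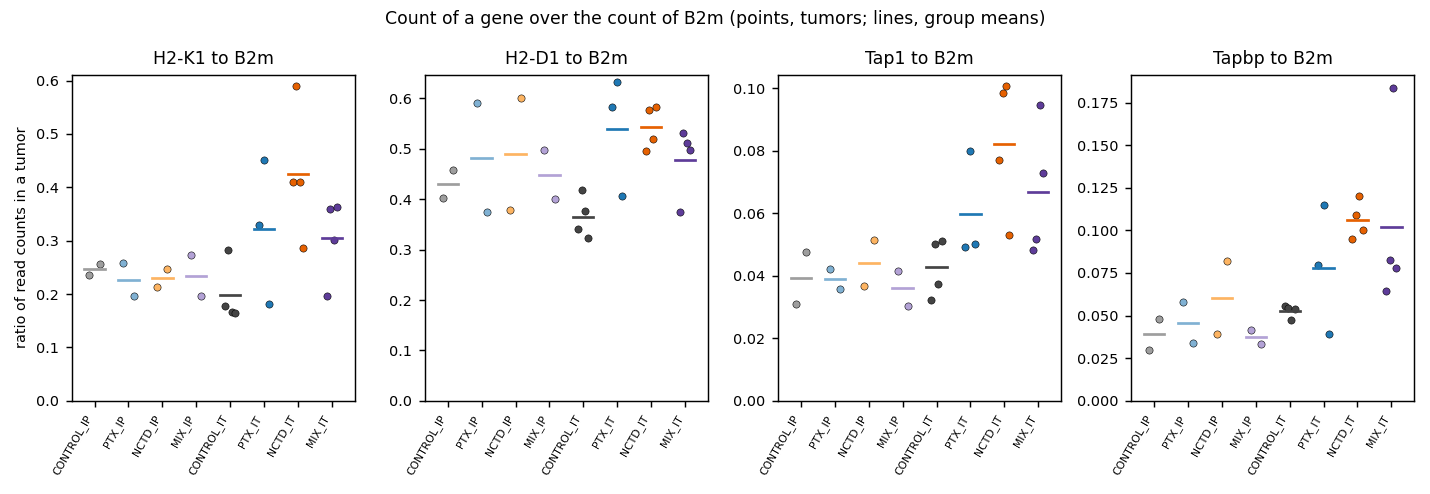
Read count of H2-K1, H2-D1, Tap1 and Tapbp divided by that of B2m in the same tumor (linear axis from 0), 1 point per tumor with lines at group means. The 4 NCTD_IT tumors lie above all 4 CONTROL_IT tumors in each panel, for Tapbp at 0.0949 to 0.1199 against 0.0471 to 0.0553.

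The genes most like the class I genes were named by Pearson correlation of log2 CPM with the mean of the 10 over the 23 tumors, among 13385 other genes. They were H2-Aa (r = 0.98), H2-DMb1, Irf8, Nod1, Gbp7, Gm12185, H2-Ab1, Psme2b, Gbp9 and Trim12c (r = 0.96 for the tenth). H2-Aa and H2-Ab1 encode the chains of a class II molecule, H2-DMb1 a class II peptide exchange factor, Irf8 an interferon regulatory factor of myeloid cells, and Gbp7 and Gbp9 interferon-induced GTPases. Over all genes the median r was 0.01, 116 genes reached 0.9 and 245 were at or below -0.7. Without CONTROL_IT tumor 9 and MIX_IT tumor 23, the 2 tumors farthest from the median, r was still 0.97 for H2-Aa and 0.95 for Irf8.

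Of 16 interferon-gamma response genes past the filter, 13 correlated with the class I mean at r of 0.7 or more, beside 5.59% of all genes. Their summed level went from 571 CPM in MIX_IT tumor 23 and 599 CPM in CONTROL_IT tumor 9 to 6149 CPM in CONTROL_IT tumor 10, with r = 0.97 to the class I mean. The chemokine Cxcl9, which draws T cells, and the GTPase Gbp7 had r of 0.95 and 0.97. No gene of this list was called in any comparison, and none had an unadjusted p below 0.05 in NCTD_IT or PTX_IT, where all 16 estimates were positive with medians of 0.53 and 0.48 (edgeR). In NCTD_IT the 3 genes with the smallest p were Gbp7 (0.99 ± 0.54), Gbp5 (1.57 ± 1.08) and Cxcl9 (0.90 ± 0.68), and in PTX_IT they were Cxcl9 (1.09 ± 0.72), Gbp7 (0.67 ± 0.57) and Gbp5 (1.34 ± 1.15). In MIX_IT they were Irgm1, an immunity-related GTPase (-1.11 ± 0.48, adjusted p = 0.338), Cd274, the checkpoint ligand PD-L1 (-1.03 ± 0.75), and the chemokine Cxcl10 (-0.66 ± 0.57). Cd274 read -0.13 without CONTROL_IT tumor 10 and -1.72 without MIX_IT tumor 22.

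Of 22 regulators past the filter, 7 had r of 0.7 or more, and the list held no called gene. Irf1 and Jak2, on the interferon-gamma signaling path, had r of 0.88 and 0.86, and the cytokine Ifng itself had r = 0.76 at a mean of 2.62 CPM. Ezh2, a histone methyltransferase named here after its values were seen, ran against the class I genes (r = -0.85). Ifngr1, a chain of the interferon-gamma receptor, did not follow the class I level (r = 0.22) and had estimates of 1.38 ± 0.39 in NCTD_IT (adjusted p = 0.064), 0.91 ± 0.41 in PTX_IT and 0.98 ± 0.38 in MIX_IT. Irf2 read 1.11 ± 0.29 in NCTD_IT (adjusted p = 0.0579) and 0.56 ± 0.31 in PTX_IT, and Rela, a subunit of NF-kappaB, read 0.55 ± 0.19 in NCTD_IT (0.12 with the Xist covariate). In PTX_IT Irf1 read 0.84 ± 0.54. In MIX_IT Rfxap, a subunit of the RFX complex that binds class I and class II promoters, read -0.78 ± 0.25 and Ifngr2 read -0.39 ± 0.15. In NCTD_IT both Ifngr1 and Irf2 were called by DESeq2, beside 10.6% of all genes. Both were also called by edgeR with only the 2 groups in the model, and with all 23 tumors in the model. With the Xist covariate Ifngr1 read -0.31 and Irf2 -0.24.

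Among 18 other genes of the class I pathway past the filter, 4 followed the class I mean, namely the immunoproteasome subunit Psmb10, the proteasome activators Psme1 and Psme2, and the tapasin relative Tapbpl (r = 0.79 to 0.95). The constitutive subunits Psmb5 and Psmb6 (r of -0.35 and -0.07) and the chaperones Calr and Canx (r of 0.14 and -0.53) did not. Lnpep, an aminopeptidase of endosomes that can trim peptides for cross-presentation, was the only gene of the list called in an IT comparison with control. It rose in NCTD_IT by a log2 fold change of 1.14 ± 0.27 (adjusted p = 0.0487, edgeR) and read 0.93 ± 0.29 in PTX_IT and 0.73 ± 0.27 in MIX_IT, neither of them called. The call was lost in 6 of the 8 fits that left out 1 tumor (CONTROL_IT tumors 9, 11 and 12, NCTD_IT tumors 17, 18 and 20; adjusted p up to 0.157, edgeR), and with the Xist covariate the estimate was -0.21. Uggt1, which proofreads glycoprotein folding for class I loading, was higher in IT than in IP tumors by 0.43 ± 0.09 (adjusted p = 0.0367, edgeR), a call lost without the filter, with the Xist covariate and in 16 of the 23 fits that left out 1 tumor (adjusted p up to 0.144, edgeR). Its estimates against CONTROL_IT were 0.46, 0.42 and 0.45 in NCTD_IT, PTX_IT and MIX_IT, and with the Xist covariate 0.035, 0.047 and 0.49. Calr read -0.52 ± 0.20 in NCTD_IT, Psmb5 -0.32 ± 0.22 in PTX_IT and the aminopeptidase Npepps 0.67 ± 0.19 in MIX_IT.

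Of the nonclassical class I genes, 14 passed the filter in all tumors and 12 in the IT arm, and none was called in any comparison. H2-M3, H2-Q4, H2-T22, H2-T23 and H2-Q7 followed the class I mean (r = 0.78 to 0.92). Cd1d1, which presents lipids to NKT cells, had nearly equal estimates in NCTD_IT (1.64 ± 0.48, adjusted p = 0.0711), PTX_IT (1.66 ± 0.51) and MIX_IT (1.55 ± 0.48), which share 1 control group. With the Xist covariate they were 0.22, 0.38 and 1.71. H2-K2 read 1.49 ± 0.51 and H2-M3 1.25 ± 0.60 in NCTD_IT, H2-Q7 1.79 ± 1.05 and H2-M3 0.97 ± 0.64 in PTX_IT, and H2-T23 -1.54 ± 0.88 and Fcgrt -0.56 ± 0.37 in MIX_IT. With the Xist covariate H2-K2 in NCTD_IT read 0.12 and H2-Q7 in PTX_IT 0.26. H2-T23 in MIX_IT read -0.08 without CONTROL_IT tumor 10 and -2.42 without MIX_IT tumor 22. H2-family genes are close copies of each other, and how reads matching several of them were counted was not given in the sources used here. Of the 451 windows of 50 bases in the last 500 bases of each transcript (GENCODE), 2 of H2-K1 (0.444%, shared with H2-D1) and 43 of H2-D1 (9.53%) also occurred in transcripts of other genes, and none did for the other 8 class I genes.

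Markers of some leukocytes moved with the class I genes. The summed level of the 8 T and NK cell markers went from 3.09 CPM in CONTROL_IT tumor 9, with 4 of the 8 at 0, through 9.76 CPM in PTX_IT tumor 16 and 9.95 CPM in MIX_IT tumor 23, with 6 of the 8 at 0, to 458 CPM in NCTD_IT tumor 20. Its r with the class I mean was 0.96 over the 23 tumors. By group the sum covered 3.09 to 214 CPM in CONTROL_IT, 9.76 to 228 in PTX_IT, 36.3 to 458 in NCTD_IT, 9.95 to 204 in MIX_IT and 15.3 to 202 in the IP tumors. Cd8a, a defining marker of CD8 T cells, was at 0 in CONTROL_IT tumor 9 and MIX_IT tumor 23 and at 39.2 CPM in NCTD_IT tumor 20.

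Macrophage markers (56.5 to 620 CPM) had r = 0.84 and dendritic cell markers (2.55 to 27.3 CPM) r = 0.57, while neutrophil markers had r = 0.19. Of the other cell types, skeletal muscle markers (0.515 to 214 CPM) had r = 0.65 and erythroid markers (245 to 6944 CPM) r = -0.53, whereas melanocytic markers (r = 0.21), fibroblast markers (r = -0.01) and endothelial markers (r = -0.0035) did not follow. Without CONTROL_IT tumor 9 and MIX_IT tumor 23, r was 0.95 for macrophage, 0.78 for dendritic cell, 0.46 for skeletal muscle and -0.44 for erythroid markers. MIX_IT tumor 23 differed from CONTROL_IT tumor 9 in having the lowest melanocytic sum, 14979 CPM, and 7566 CPM of fibroblast markers. In NCTD_IT against CONTROL_IT all 8 T and NK cell markers and all 6 macrophage markers had positive estimates (medians 1.66 and 1.26) with none called by edgeR, and in PTX_IT the medians were 1.16 and 1.12 with none called. The part of these cells in the class I levels was not tested.

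**Figure D5:**
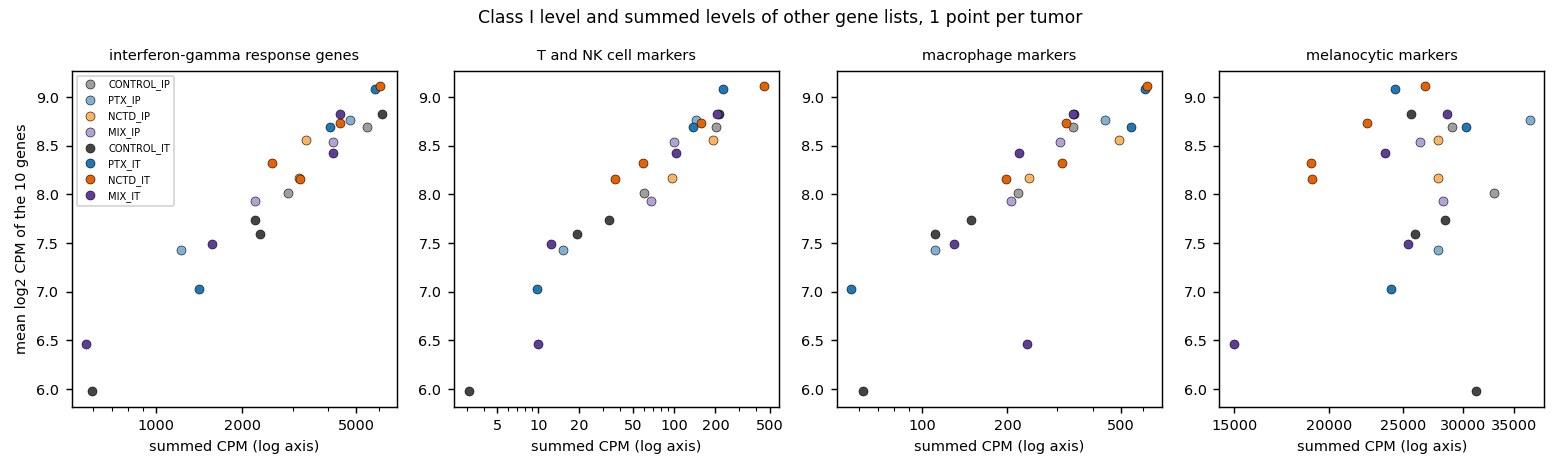
Mean log2 CPM of the 10 class I genes (vertical) against the summed CPM of 4 gene lists (horizontal, log axis), 1 point per tumor, colored by group. Points rise along the interferon-gamma response (r = 0.97) and T and NK cell panels (r = 0.96) and scatter in the melanocytic panel (r = 0.21).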

How the data were processed

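The deposited table held raw read counts per gene for 23 tumors, made by the authors from 3′ mRNA libraries; the submitters' processing notes name FastQC, Trimmomatic, STAR 2.7.11b and GRCm39. Strand, multiple alignment and molecular identifier settings were not given in the sources used here. Groups followed the sample labels. Genes were filtered (filterByExpr, minimum count 10, minimum total 15), scaled by TMM and tested two-sided with edgeR 4.0.16 (R 4.3.3) in 1 model per route or over all tumors, with Benjamini-Hochberg adjustment over all genes tested, and with DESeq2 1.42.0 as an alternative. The labels do not say that the tumors of a group came from separate mice, so p-values measure only the spread between these tumors. No 2 tumors of a group agreed within sampling noise (chi-square per degree of freedom 8.80 to 71.8). The test code was run on counts simulated with the spread typical of genes at a like level. The 10 genes spread more than the median gene, so that run does not speak to power for them. CPM used TMM library sizes, and log2 CPM a prior count of 2. The members and lists were chosen with earlier results of these data known. Beyond the 10 genes, the text names list genes with adjusted p below 0.05, the 3 with the smallest p of each list in each IT comparison with control, the 10 most correlated genes and markers. List genes named only for their correlation were chosen after their values were seen. Of the listed genes, 2 symbols were not matched.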

Additional observations from a re-analysis of the deposited data

How the results depend on the processing

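No paired analysis was possible because every tumor carried its own replicate number, so no numbers were shared between groups. The count of 0 class I genes called was the same in all 131 fits that left out 1 tumor and in 76 of 80 other alternatives (DESeq2, its size factors, no filter, other sets of tumors in the model, the Xist covariate). The exceptions were fits without the filter on low counts, which called 7 in NCTD_IT and 2 in PTX_IT against CONTROL_IT, 1 between routes and 1 in the NCTD interaction; the cause was not tested. DESeq2's size factors moved no median of all genes by more than 0.1. Xist did not overlap between the single-drug IT groups and CONTROL_IT. The covariate fits of NCTD_IT and PTX_IT therefore cannot part the drug from this split, and their signs decide no direction. With Xist as a covariate, log2 fold changes in NCTD_IT became -1.79 (B2m), -0.39 (Erap1), -1.98 (H2-D1), -2.01 (H2-K1), -0.95 (Nlrc5), -1.71 (Psmb8), -1.22 (Psmb9), -1.31 (Tap1), -1.97 (Tap2), -2.10 (Tapbp), -2.38 (Cxcl9), -2.52 (Gbp5), -1.04 (Gbp7), -1.74 (H2-M3), -0.31 (Ifngr1), -0.24 (Irf2) and -0.21 (Lnpep). In PTX_IT they became -1.54 (B2m), -0.47 (Erap1), -1.65 (H2-D1), -1.99 (H2-K1), -1.11 (Nlrc5), -1.72 (Psmb8), -1.42 (Psmb9), -1.40 (Tap1), -2.04 (Tap2), -2.19 (Tapbp), -1.90 (Cxcl9), -2.39 (Gbp5), -1.24 (Gbp7), -1.98 (H2-M3), -0.60 (Ifngr1), -0.98 (Irf1), -0.71 (Irf2), -0.26 (Lnpep) and 0.096 (Psmb5). In MIX_IT B2m became 0.12 and Psmb9 0.20. Leaving out 1 tumor turned signs in MIX_IT, with ranges of -0.54 to 0.31 (B2m), -0.27 to 0.80 (H2-D1), -0.079 to 1.28 (H2-K1), -0.19 to 0.42 (Nlrc5), -0.14 to 0.85 (Psmb8), -0.57 to 0.50 (Psmb9), -0.047 to 0.84 (Tap1), -0.24 to 0.97 (Tap2) and -1.10 to 0.19 (Cxcl10), and for B2m in NCTD_IT (-0.18 to 0.61) and PTX_IT (-0.075 to 0.66). In B2m, H2-K1 and Psmb9 of MIX_IT the limits were the fits without CONTROL_IT tumor 10 and without MIX_IT tumor 22. Tap2, at 2 to 121 counts, was the least precisely measured of the 10.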
